A study of Mus musculus with 16 samples.

Results

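The comparison described here is that between genotypes in injured intervertebral discs: 5 mice carrying the Adam8EQ mutation against 4 wild-type mice. Its members were the autosomal genes that reached at least 1 TPM in at least 3 of the 16 libraries of the study, 23252 of the 49315 genes in the expression table. TPM (the unit of the table) is a read count scaled for gene length and for the total of the library, so levels of different genes can be set beside each other. The injured libraries were 9 of 16, and the other 7 came from intact discs of 4 mutant and 3 wild-type mice.

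Bulk RNA sequencing had been done on tail discs, with the tissue of 4 discs pooled for each mouse, so each library stood for 1 animal. In the labels the mutant groups are Adam8EQ, injured or intact, and the wild-type groups are named by their titles because their genotype field is cut short. The series title names DBA as the comparison strain. The background strain of the mutants, the change made by the EQ allele, the age of the mice, the kind of injury and the time after it are not given in the labels, so an effect of strain and an effect of the mutation cannot be told apart if the strains differ.

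Adam8 encodes a membrane-anchored protease with a disintegrin domain, known from leukocytes and from inflamed joint tissue, where it can cut cell-surface receptors and matrix proteins. The intervertebral disc consists of a gel-like nucleus pulposus of notochordal origin inside a fibrous annulus, and a healthy disc has almost no blood vessels and few immune cells. After injury, disc cells and arriving leukocytes release cytokines, chemokines and acute-phase proteins, while cartilage matrix genes and the Hedgehog and Wnt programmes that maintain the nucleus and annulus often shift. Genes of these classes are described below, first those higher and then those lower in injured mutants, each by its role.

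The tissue was checked against marker genes. All 6 disc and cartilage markers (Acan, Col2a1, Sox9, Comp, Hapln1 and Chad) were at 1 TPM or above in every injured library, with summed levels of 6113.1 to 17931.8 TPM in mutants and 7336.2 to 23917.8 TPM in the wild type. None of the markers of 13 cell types was at 0 in every library. The 4 injured wild-type mice did not form 1 cluster. On the first principal component of log2(TPM + 1), which held 40.6% of the variance, wild-type mice 1 and 2 lay at -42.6 and -23.2 and mice 3 and 4 at 84.9 and 41.8. Injured mutants lay between 39.6 and 97.8 and intact libraries between -66.9 and -40.2. Summed macrophage markers (Adgre1, Cd68, Csf1r, C1qa, Lyz2 and Mrc1) separated the same mice: 206.2 and 341.6 TPM in wild-type mice 1 and 2, 3361.5 and 2164.9 TPM in mice 3 and 4, and 656.3 to 6977.0 TPM in injured mutants, while no intact library exceeded 188.2 TPM. Many genes below are therefore given mouse by mouse, others as ranges, and for many the difference is repeated without wild-type mice 1 and 2. Where it is not repeated, nothing is said about whether it held. In bulk tissue, fewer cells of a type and less RNA per cell cannot be told apart.

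**Figure D1:**
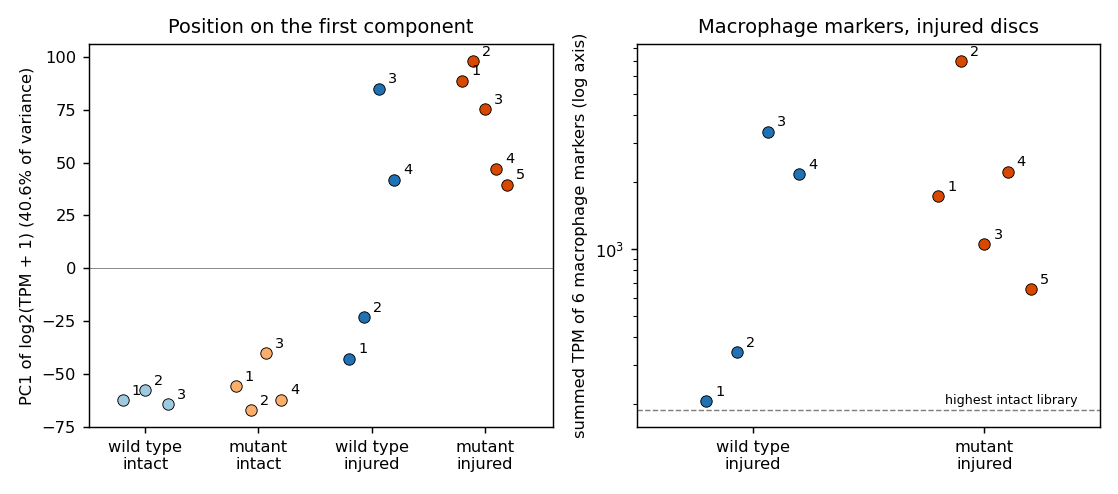
Left, position of each of the 16 libraries on the first principal component of log2(TPM + 1) by group; right, summed TPM of 6 macrophage markers in the 9 injured libraries on a log axis, with the highest intact library as a dashed line at 188.2 TPM. Points are single mice with their numbers, and injured wild-type mice 1 and 2 lie near the intact libraries in both panels, while mice 3 and 4 lie among the injured mutants.

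Between genotypes in injured discs, 203 of the 23252 members (0.873%) passed the threshold of the limma test, an adjusted p of 0.05. In mutants 44 of them were higher (0.189%) and 159 lower (0.684%). The difference of a gene is the mutant mean minus the wild-type mean of log2(TPM + 1), a scale that understates changes of genes with low levels. Among the called genes 129 differed by at least 1 on this scale, 25 of them higher and 104 lower. In 184 of the 203 the TPM values of the 5 mutants and 4 wild-type mice did not overlap, and over all members 1089 (4.68%) did not overlap, 0.925% with higher and 3.76% with lower mutants. Of the 203 genes 138 were protein coding, 67.98% against 61% of all members. The lower genes had a median exon length of 3376 bases, the higher genes 2482 and all members 2669.5.

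The balance of higher and lower calls depended on the scaling. The median difference over all members was -0.09, and after median-of-ratios scaling it was 0.0002. With that scaling 70 genes were higher and 73 lower, 48.95% higher in place of 21.67%. Quantile normalization gave 31 higher and 53 lower, and centring by GC content and exon length gave 87 and 104. Every one of the 203 genes kept its sign under these 3 scalings, as did 20794, 20456 and 20565 of the 23252 members in the same order. The 203 were picked for differences that are large beside their spread, so nothing is read from their kept signs.

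The number of calls also rested on single mice. It fell to 6 without wild-type mouse 2 and to 9 without wild-type mouse 1 or mutant mouse 3. It was 43 without wild-type mouse 4 and 26 and 20 without mutant mice 1 and 5. It rose to 2141 without wild-type mouse 3 and to 641 and 557 without mutant mice 2 and 4. Leaving out 1 intact mouse, which enters the shared estimate of the spread, gave 65 to 135. Without wild-type mice 1 and 2 together, 3 genes were called: Rtel1, Sned1 and the non-coding gene 1700054M17Rik, of which Rtel1 was among the 203. The median difference over the 44 higher genes went from 1.05 to 0.86 in that fit. Over the 159 lower genes it went from -1.17 to -0.89. Of the 203, 128 kept at least 75% of their difference, as did 9515 of the 23252 members. The 203 were called with wild-type mice 1 and 2 included, which favours genes whose wild-type mice lie together. Nothing is therefore read from the differences kept without wild-type mice 1 and 2. No explanation for the position of these mice was tested.

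The 4 genes with the largest rises by the rule for named genes encode secreted proteins, and their promoters were read for binding motifs of 3 inflammatory transcription factor families. The windows run from 250 bases before to 50 bases after each annotated start and come from RefSeq on GRCm38.p6. Searched on both strands were the AP-1 motif TGANTCA, the kappaB consensus and the C/EBP motif TTNNGNAA. Il11, Npy, Cxcl3 and Saa2 have 5 windows between them. The 3 windows with a match are printed 5′ to 3′ on the gene's own strand, with the match in capitals.

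Il11 (chr7:4778092-4778391, minus strand, AP-1): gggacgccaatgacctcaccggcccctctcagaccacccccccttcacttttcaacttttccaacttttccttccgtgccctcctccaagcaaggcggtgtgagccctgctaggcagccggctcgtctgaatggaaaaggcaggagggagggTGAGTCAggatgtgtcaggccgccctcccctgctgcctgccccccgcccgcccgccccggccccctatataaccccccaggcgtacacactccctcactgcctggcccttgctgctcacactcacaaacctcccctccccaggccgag
Cxcl3 (chr5:90785851-90786150, plus strand, kappaB): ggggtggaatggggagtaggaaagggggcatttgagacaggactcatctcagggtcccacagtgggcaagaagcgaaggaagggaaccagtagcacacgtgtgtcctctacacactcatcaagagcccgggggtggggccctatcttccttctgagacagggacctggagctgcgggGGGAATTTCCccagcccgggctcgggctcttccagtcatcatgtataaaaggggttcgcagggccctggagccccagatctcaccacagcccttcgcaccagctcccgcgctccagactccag
Saa2 (chr7:46751583-46751882, plus strand, C/EBP): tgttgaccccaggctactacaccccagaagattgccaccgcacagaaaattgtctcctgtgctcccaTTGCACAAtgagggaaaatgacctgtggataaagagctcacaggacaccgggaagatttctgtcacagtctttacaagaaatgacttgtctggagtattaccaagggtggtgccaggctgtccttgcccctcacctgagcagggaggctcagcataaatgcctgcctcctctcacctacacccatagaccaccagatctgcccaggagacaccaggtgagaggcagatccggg

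The upstream Il11 window (chr7:4782808-4783107) and the Npy window held none of the 3 motifs. Over all 32851 windows in the table, 7.808% held the AP-1 motif, 5.805% the kappaB consensus and 40.68% the C/EBP motif. Counted by gene, where a gene can have several windows, the AP-1 motif was in 2 of 24 higher and 9 of 89 lower called genes and in 6.941% of the 12217 members with a window. The kappaB consensus was in 4 of 24, 7 of 89 and 8.226%, and the C/EBP motif in 8 of 24, 36 of 89 and 36.29%. A match is a description of the letters in the window, and occupancy was not measured.

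A cytokine, a neuropeptide, a chemokine and an acute-phase protein had the largest rises among the named genes. Il11 (ENSMUSG00000004371, chromosome 7, 4772373 to 4782859), an interleukin-6 family cytokine that signals through gp130, lay at 657, 149, 780, 370 and 577 TPM in injured mutants 1 to 5 and at 7.48, 17.3, 149 and 92.8 TPM in injured wild-type mice 1 to 4. The groups nearly met, at mutant 2 and wild-type mouse 3. Il11 was higher in mutants by 3.52 ± 0.71 (SE, limma adjusted p 0.03735). Intact discs of both genotypes had little Il11, with 2.14 ± 1.45 TPM in mutants (SD, n = 4) and 2.35 ± 0.498 TPM in the wild type (SD, n = 3). Its injured difference was 1.89 without wild-type mice 1 and 2.

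Cxcl3 (ENSMUSG00000029379, chromosome 5, 90786103 to 90789600), a chemokine that attracts neutrophils, lay at 41.2, 69.7, 31.8, 11 and 12.1 TPM in mutants and at 0.183, 0.423, 9.04 and 8.55 TPM in the wild type. Mutants 4 and 5 were just above wild-type mice 3 and 4, and wild-type mice 1 and 2 were near the intact means of 0.0289 and 0.0324 TPM. The difference was 2.94 ± 0.65 (SE, limma adjusted p 0.04898), and 1.48 without wild-type mice 1 and 2.

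Saa2 (ENSMUSG00000057465, chromosome 7, 46751790 to 46754313), a serum amyloid A protein of the acute phase, lay at 138, 48.6, 140, 36.0 and 32.6 TPM in mutants and at 1.27, 4.12, 28.9 and 15.4 TPM in the wild type. All mutants were above all wild-type mice, by 2.91 ± 0.63 (SE, limma adjusted p 0.0484). Its near-identical neighbour Saa1, which can share reads with it, differed by 2.85 ± 0.75 with overlapping groups (SE, limma adjusted p 0.07555).

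Npy (ENSMUSG00000029819, chromosome 6, 49822710 to 49829507) encodes neuropeptide Y, a transmitter of sympathetic nerves that also acts on bone and immune cells. It lay at 53.7, 76.4, 88.7, 53.1 and 192 TPM in mutants and at 1.13, 3.93, 22.4 and 23.7 TPM in the wild type. The lowest mutant was above the highest wild-type mouse, and the difference was 3.24 ± 0.63 (SE, limma adjusted p 0.03388). It was 1.79 when wild-type mice 1 and 2 were left out.

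**Figure D2:**
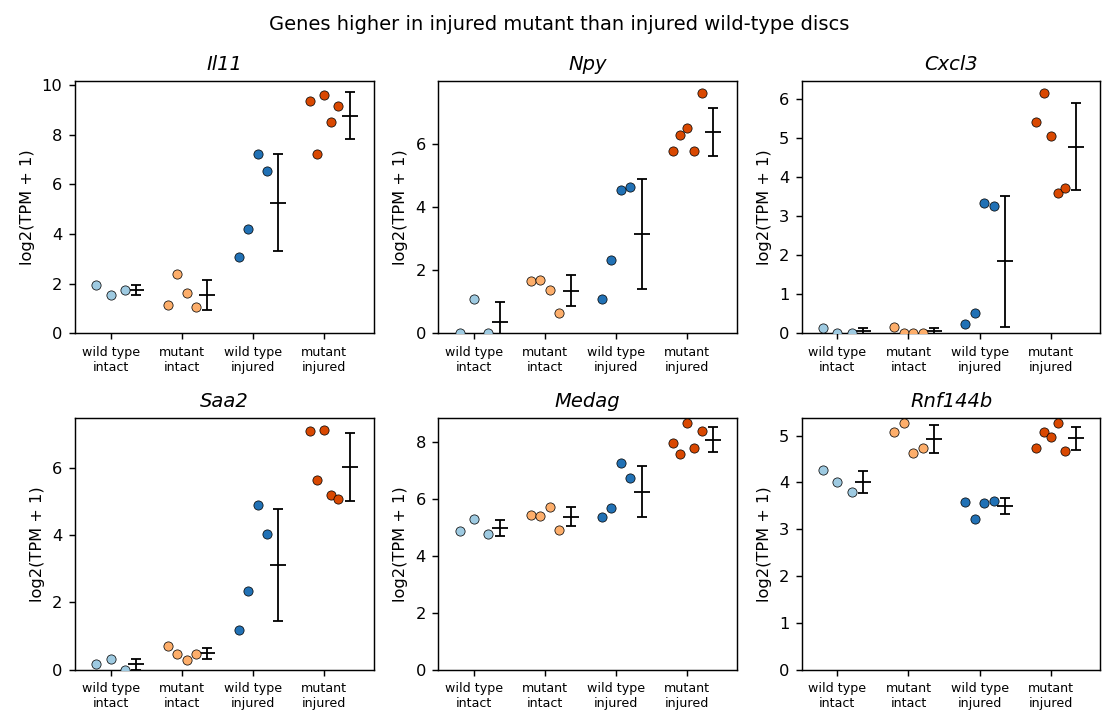
Levels of 6 genes higher in injured mutants, as log2(TPM + 1) in each of the 16 mice by genotype and treatment; each point is a mouse and the bars are the mean ± SD of a group. The 5 injured mutants lie above the 4 injured wild-type mice for every gene, and wild-type mice 1 and 2 lie lower than mice 3 and 4 for Il11, Npy, Cxcl3, Saa2 and Medag but not for Rnf144b.

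The classes these genes belong to were described by counts. Of 19 CXC chemokines and receptors tested, Cxcl3 alone was called, and the median difference was 1 against -0.09 over all members. That median was -0.22 without wild-type mice 1 and 2. It was 1.54 with mutants 1 and 2 as the only mutants and 0.15 with mutants 3, 4 and 5, whose libraries carry another name prefix. None of 23 CC chemokines and receptors was called by limma (3 higher, 13% against 5.25% of all members, and 1 lower, 4.35% against 14.9%, at an unadjusted p under 0.05), with a median of 0.52 and, without the same mice, -0.38. Ccl2, a monocyte chemokine of that list, lay at 214, 306, 330, 90.7 and 64.2 TPM in mutants and at 10.1, 9.11, 108 and 67.5 TPM in the wild type, with overlap (2.47 ± 0.66, SE, limma adjusted p 0.07735).

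Of 20 interleukin-6 family genes Il11 alone was called, and the median was 0.25 and, without wild-type mice 1 and 2, -0.05. At an unadjusted p under 0.05 by limma, 9 were higher (45%, against 5.25% of all members) and 0 lower (against 14.9%). Il6, the cytokine that gives the family its name, differed by 1.87 ± 0.53 (SE, limma adjusted p 0.08514). Saa2 was the 1 called gene of 21 acute-phase genes, whose median was 0.53 and, without wild-type mice 1 and 2, 0.00. Lbp, the lipopolysaccharide-binding protein of that list, lay at 1284, 204, 1154, 663 and 1005 TPM in mutants and at 194, 320, 249 and 151 TPM in the wild type. Mutant 2 fell within the wild-type range and the other 4 mutants above it (1.72 ± 0.41, SE, limma adjusted p 0.06002), and the difference was 1.90 without wild-type mice 1 and 2.

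None of 38 NF-kappaB and Toll-like receptor genes was called by limma, and 13 were higher (34.2% against 5.25%) and 2 lower (5.26% against 14.9%) at an unadjusted p under 0.05. Their median was 0.44, and 0.04 without wild-type mice 1 and 2. Nfkb1, which encodes the p105 precursor of an NF-kappaB subunit, lay at 53.5, 49.8, 75.7, 51.3 and 53.5 TPM in mutants and at 37.0, 34.9, 43.9 and 40 TPM in the wild type. Its groups did not overlap, but the difference of 0.52 ± 0.12 did not pass (SE, limma adjusted p 0.05367). Nos2, inducible nitric oxide synthase, lay at 6.60 and 14.0 TPM in wild-type mice 1 and 2, at 466 and 303 TPM in mice 3 and 4, and at 332 to 1516 TPM in mutants (3.20 ± 1, SE, limma adjusted p 0.1075).

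Summed leukocyte markers, like Il11, Npy, Cxcl3 and Saa2, were lower in wild-type mice 1 and 2 than in mice 3 and 4. Among mutants the order was not shared by all of them. Mutant 2 had the highest neutrophil and macrophage sums and the highest Cxcl3, but the lowest Il11. The summed neutrophil markers were 9.211 and 9.129 TPM in wild-type mice 1 and 2, 107.8 and 102.1 TPM in mice 3 and 4, and 11.29 to 630.9 TPM in mutants. The median difference of 18 neutrophil genes was 1.17, and -0.32 without wild-type mice 1 and 2. It was 2.79 with mutants 1 and 2 as the only mutants and 0.03 with mutants 3, 4 and 5. For 29 macrophage and monocyte genes the median was 0.90, and -0.41 without the same wild-type mice, 1.55 with mutants 1 and 2 and 0.54 with mutants 3, 4 and 5. No gene of either list was called by limma, and at an unadjusted p under 0.05 each list had 1 higher and 1 lower gene. That is 5.56% of the neutrophil and 3.45% of the macrophage list on each side, against 5.25% higher and 14.9% lower of all members. The part of leukocyte content in the cytokine differences was not tested.

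Transcription factors of stress and immediate early responses formed the next class. Atf4, the central factor of the integrated stress response, lay at 886, 459, 748, 384 and 482 TPM in mutants and at 221, 202, 322 and 323 TPM in the wild type, without overlap. It was higher by 1.10 ± 0.22 (SE, limma adjusted p 0.03717), and by 0.80 without wild-type mice 1 and 2. Herpud1, which acts in the degradation of misfolded proteins at the endoplasmic reticulum, lay at 119, 128, 155, 129 and 142 TPM in mutants and at 79.8, 97.1, 77.2 and 91.7 TPM in the wild type. Its groups did not overlap, wild-type mice 1 and 2 did not stand apart from mice 3 and 4, and the difference was 0.63 ± 0.09 (SE, limma adjusted p 0.01088) and 0.67 without those mice. Herpud1 and Atf4 were the 2 called genes of 35 in the chaperone and unfolded protein list, with a list median of 0.12 and 24 of 35 differences positive (68.6% against 39.5%). Without wild-type mice 1 and 2 the list median was 0.006.

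Nfil3, a leucine zipper repressor of the circadian and immune systems, lay at 44.0, 57.9, 45.3, 33.2 and 35.0 TPM in mutants and at 14.8, 18.8, 27.1 and 21.4 TPM in the wild type. It was higher by 1.04 ± 0.19 (SE, limma adjusted p 0.02872), without overlap. Of 21 circadian clock genes Nfil3 alone was called, and 6 were higher (28.6% against 5.25%) and 9 lower (42.9% against 14.9%) at an unadjusted p under 0.05. Arntl and Npas2, activators of the clock, differed by 1.28 ± 0.35 and 1.38 ± 0.40 (SE, limma adjusted p 0.0781 and 0.08869), and Dbp, an output gene of the clock, by -1.16 ± 0.31 (SE, limma adjusted p 0.07555). These 3 differences without wild-type mice 1 and 2 were 0.61, 0.47 and -0.55. The time of day at which tissue was taken is not given in the labels.

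Fosl2, a subunit of AP-1, lay at 215, 168, 175, 151 and 167 TPM in mutants and at 107, 125, 135 and 122 TPM in the wild type, a difference of 0.51 ± 0.10 (SE, limma adjusted p 0.03372) without overlap. It was the 1 called gene among 31 AP-1 and immediate early genes. Of these 31, 28 had a positive difference (90.3%, against 39.5% of all members), with a median of 0.83. At an unadjusted p under 0.05, 13 were higher (41.9% against 5.25%) and 2 lower (6.45% against 14.9%). Leaving out wild-type mice 1 and 2 gave a median of 0.11. Klf4 and Egr2 of the same list had differences of 1.33 ± 0.36 and 1.47 ± 0.40 (SE, limma adjusted p 0.07761 and 0.0781). Btg1, an antiproliferative gene that also responds to stress, lay at 346, 428, 534, 293 and 380 TPM in mutants and at 118, 131, 286 and 210 TPM in the wild type and was higher by 1.15 ± 0.22 (SE, limma adjusted p 0.03388).

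Rnf144b (ENSMUSG00000038068, chromosome 13, 47122656 to 47247991), an E3 ubiquitin ligase, lay at 25.5, 32.8, 30.1, 37.8 and 24.4 TPM in mutants and at 11.1, 8.36, 10.8 and 11.1 TPM in the wild type. All 4 wild-type mice lay within a few TPM of each other, and the difference was 1.45 ± 0.16 (SE, limma adjusted p 0.002166) and 1.36 without wild-type mice 1 and 2. Rnf144b was called in each of the 9 fits that left out 1 injured mouse. In intact discs it was at 29.9 ± 6.38 TPM in mutants (SD, n = 4) and 15.3 ± 2.69 TPM in the wild type (SD, n = 3), a difference of 0.91 ± 0.19 that did not pass (SE, limma adjusted p 0.4068).

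Tiam2, an exchange factor that activates the small GTPase Rac, lay at 422, 252, 572, 397 and 640 TPM in mutants and at 206, 177, 207 and 212 TPM in the wild type. The wild-type mice were tightly grouped below all mutants, and the difference was 1.12 ± 0.24 (SE, limma adjusted p 0.04616). Tfb1m overlaps it on the opposite strand at a mean of 25.84 TPM over all libraries, so part of the Tiam2 reads may belong to it. Vps37b, a subunit of the ESCRT-I sorting complex, lay at 61.9, 57.3, 102, 64.8 and 81.2 TPM in mutants and at 27, 26.1, 47.4 and 35.0 TPM in wild-type mice (1.10 ± 0.19, SE, limma adjusted p 0.02771). It overlaps Hip1r on the opposite strand, and whether the authors counted by strand is not given in the sources used here.

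Medag, a gene known from adipocyte differentiation, lay at 252, 191, 405, 220 and 334 TPM in mutants and at 40.3, 50, 153 and 106 TPM in the wild type. It was higher by 1.82 ± 0.34 (SE, limma adjusted p 0.02999), and 2 antisense genes overlap it. The histone H3 gene Hist2h3c2, which shares reads with near-identical histone genes, was higher by 1.68 ± 0.37 (SE, limma adjusted p 0.04889), with 42.1 TPM in mutant 1, 8.94 to 18 TPM in the other mutants and 2.95 to 5.45 TPM in the wild type. It was the 1 called gene of 52 replication-dependent histone genes, of which 45 had a positive difference (86.5%, against 39.5% of all members). The median of these histone genes was 0.53, and 0.18 without wild-type mice 1 and 2. The low-level gene Arl14epl was at 1.63 to 4.38 TPM in mutants and 0.258 to 0.885 TPM in wild-type mice (1.43 ± 0.26, SE, limma adjusted p 0.02771), and here wild-type mice 3 and 4 were the lower pair.

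On the lower side, Aplnr, Myh11 and Mylk are genes of vessels and contractile cells, named under the rule that required groups without overlap. Aplnr (ENSMUSG00000044338, chromosome 2, 85136225 to 85139923), the apelin receptor of endothelial cells, lay at 2.66, 20, 2.65, 6.68 and 3.73 TPM in mutants and at 28.7, 49.2, 44.0 and 23.3 TPM in the wild type. Mutant 2 was the highest mutant and still below every wild-type mouse. Aplnr was lower by 2.50 ± 0.44 on the log2 scale (SE, limma adjusted p 0.02771), a difference of -2.39 without wild-type mice 1 and 2. Intact discs had 3.84 ± 1.28 TPM in mutants (SD, n = 4) and 7.55 ± 2.73 TPM in the wild type (SD, n = 3), so injured wild-type mice had the highest levels of the 4 groups.

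Aplnr was the 1 called gene of 31 endothelial genes, of which 25 had a negative difference (80.6%, against 60.4% of all members) and whose median was -0.44. At an unadjusted p under 0.05 by limma, 3 were lower (9.68% against 14.9%) and 1 higher (3.23% against 5.25%). Endothelial content differed between the wild-type mice: the summed markers (Pecam1, Cdh5, Kdr, Tek, Emcn and Vwf) were 6.874, 13.22, 182.6 and 59.64 TPM in wild-type mice 1 to 4 and 9.775 to 63.65 TPM in mutants. The part of endothelial content in the Aplnr difference was not tested. Without wild-type mice 1 and 2 the list median was -1.46.

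Myh11, the smooth muscle myosin heavy chain, lay at 1.51, 3.37, 3.83, 10.4 and 6.10 TPM in mutants and at 20.2, 14.0, 19.2 and 11.5 TPM in the wild type. The groups did not overlap, and the difference was -1.66 ± 0.32 (SE, limma adjusted p 0.03388). Mylk, myosin light chain kinase, which triggers contraction in smooth muscle and in contractile connective tissue cells, lay at 7.17, 21.9, 7.02, 17.1 and 13.3 TPM in mutants and at 34.5, 44.5, 30.9 and 40.4 TPM in the wild type. Its difference was -1.54 ± 0.26 (SE, limma adjusted p 0.02602). Without wild-type mice 1 and 2 the differences were -1.57 for Myh11 and -1.47 for Mylk, and in intact discs the genotypes were at 18.9 ± 2.00 and 21.5 ± 3.47 TPM for Myh11 and 40.3 ± 4.52 and 40.5 ± 2.46 TPM for Mylk (mutant first, SD, n = 4 and n = 3). Of 15 pericyte and smooth muscle genes 13 had a negative difference (86.7%, against 60.4% of all members), with a median of -0.47, and Myh11 alone was called. At an unadjusted p under 0.05 by limma, 1 was lower (6.67% against 14.9%) and 0 higher (against 5.25%).

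**Figure D3:**
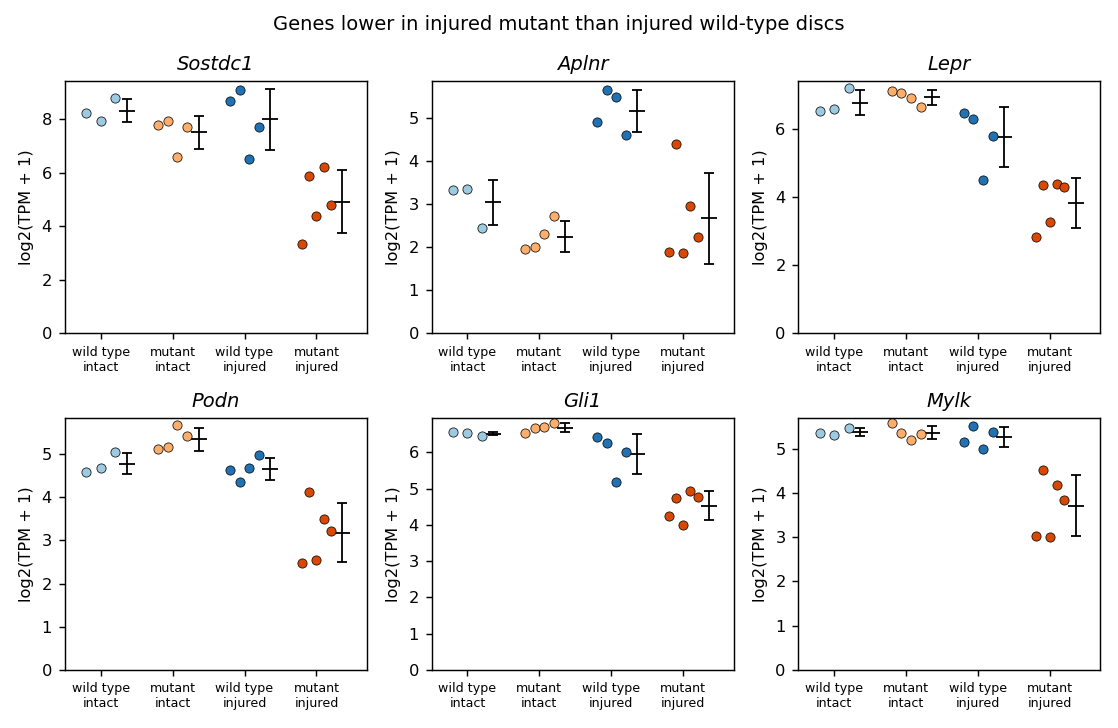
Levels of 6 genes lower in injured mutants, as log2(TPM + 1) in each of the 16 mice by genotype and treatment; each point is a mouse and the bars are the mean ± SD of a group. Injured mutants lie below injured wild-type mice for every gene; for Podn and Mylk the injured wild type lies at or near the intact level, and for Aplnr above it.

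Among matrix genes, Podn and Aspn were lower, both small leucine-rich proteoglycans, secreted proteins that bind collagen fibrils and growth factors. Podn (ENSMUSG00000028600, chromosome 4, 108014791 to 108096445), podocan, lay at 4.57, 16.5, 4.88, 10.2 and 8.37 TPM in mutants and at 24.0, 19.6, 24.5 and 30.8 TPM in the wild type. It was lower by 1.49 ± 0.28 on the log2 scale (SE, limma adjusted p 0.02999), without overlap, and the difference was -1.66 without wild-type mice 1 and 2. The annotated span of Podn overlaps the more abundant Scp2 on the same strand. Aspn, asporin, which binds TGF-beta, lay at 89.6, 99.2, 29.6, 67.9 and 90.0 TPM in mutants and at 136, 172, 236 and 167 TPM in wild-type mice (-1.31 ± 0.29, SE, limma adjusted p 0.04915).

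Podn and Aspn were the 2 called genes of 12 in this list, where 9 had a negative difference (75%, against 60.4% of all members) and the median was -0.97. At an unadjusted p under 0.05 by limma, 6 were lower (50% against 14.9%) and 1 higher (8.33% against 5.25%). The median was -1.09 without wild-type mice 1 and 2. Ogn and Ecm2, relatives in the same family, differed by -1.61 ± 0.45 and -1.30 ± 0.36 with overlapping groups (SE, limma adjusted p 0.08036 and 0.0793).

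Single genes of other matrix lists were called lower as well. Thbs2, a thrombospondin that limits angiogenesis and shapes collagen fibrils, lay at 105, 102, 74.5, 126 and 113 TPM in mutants and at 176, 167, 198 and 181 TPM in the wild type. All wild-type mice were above all mutants, by 0.81 ± 0.14 (SE, limma adjusted p 0.02771), and the difference was -0.87 without wild-type mice 1 and 2. Col8a2, a short-chain collagen, lay at 7.57, 19.3, 9.27, 15.1 and 13.8 TPM in mutants and at 38.5, 30.4, 23.4 and 27.9 TPM in wild-type mice (-1.20 ± 0.22, SE, limma adjusted p 0.02999). Matn2, an adaptor of matrix filaments, lay at 71.3, 61.1, 56.3, 74.8 and 68.9 TPM in mutants and at 91.9, 93.7, 95.4 and 114 TPM in wild-type mice (-0.57 ± 0.11, SE, limma adjusted p 0.03215). In intact discs Matn2 went the other way, with 152 ± 17.2 TPM in mutants (SD, n = 4) and 106 ± 9.80 TPM in the wild type (SD, n = 3), a difference of 0.51 ± 0.12 that did not pass (SE, limma adjusted p 0.8587).

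Thbs2 was the 1 called gene of 39 elastic fibre, scar and crosslinking genes (median -0.19), Col8a2 of 21 interstitial and basement membrane collagens (median -0.16) and Matn2 of 40 cartilage collagens and proteoglycans (median -0.47). At an unadjusted p under 0.05 by limma, 35.9%, 14.3% and 22.5% of these lists were lower, against 14.9% of all members. Higher at that level were 5.13%, 4.76% and 5%, against 5.25%. Without wild-type mice 1 and 2 the first 2 medians were -0.73 and -0.88 and the cartilage median was -0.05. The cartilage median moved with summed cartilage markers that were 7336.2 TPM in wild-type mouse 3 and 21119.3 to 23917.8 TPM in the other wild-type mice, against at most 17931.8 TPM in mutants. The part of tissue composition in these medians was not tested. None of 19 matrix metalloproteinases was called by limma, with 1 higher (5.26% against 5.25%) and 1 lower (5.26% against 14.9%) at an unadjusted p under 0.05.

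Gli1, a Hedgehog target gene, was lower in injured mutants. In this pathway Sonic hedgehog from notochordal cells frees the signal transducer Smo from inhibition, and Gli1 and Ptch1 are themselves transcribed in response. Gli1 (ENSMUSG00000025407, chromosome 10, 127329882 to 127341974), the transcription factor induced by the pathway, lay at 18, 25.5, 14.9, 29.6 and 26.4 TPM in mutants and at 85.1, 75.2, 35.4 and 63.2 TPM in the wild type. It was lower by 1.43 ± 0.23 (SE, limma adjusted p 0.02578), and wild-type mouse 3 lay nearest the mutants. Intact discs had 102 ± 8.37 TPM in mutants (SD, n = 4) and 91 ± 3.35 TPM in the wild type (SD, n = 3). Ptch1, the main receptor, lay at 44.5, 40, 35.3, 43.0 and 37.6 TPM in mutants and at 119, 110, 45.1 and 67.9 TPM in the wild type. Its groups did not overlap, but the difference of -0.98 ± 0.22 did not pass (SE, limma adjusted p 0.05043). Without wild-type mice 1 and 2 the differences were -1.06 for Gli1 and -0.46 for Ptch1.

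Of 25 genes in the Hedgehog and notochordal list 22 had a negative difference (88%, against 60.4% of all members), with a median of -0.49. The median was -0.23 without wild-type mice 1 and 2. At an unadjusted p under 0.05 by limma, 11 were lower (44% against 14.9%) and 0 higher (against 5.25%). Notochordal markers (T, Shh, Krt8, Krt18, Krt19 and Cd24a) summed to 5262.5, 4246.2, 1456.7 and 2294.3 TPM in wild-type mice 1 to 4 and to 553, 1414.3, 722, 3345.3 and 1879.8 TPM in mutants 1, 2, 3, 4 and 5. The part of notochordal content in the Hedgehog differences was not tested.

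Sostdc1 and Dkk3, both secreted and known as modulators of Wnt signalling, were lower too. Sostdc1 (ENSMUSG00000036169, chromosome 12, 36314139 to 36318452), which binds BMPs and Wnt co-receptors, lay at 8.97, 57.8, 19.9, 73.6 and 26.9 TPM in mutants and at 411, 544, 91.0 and 211 TPM in the wild type. Every mutant was below every wild-type mouse, by 3.09 ± 0.58 on the log2 scale (SE, limma adjusted p 0.02999), and the difference was -2.21 without wild-type mice 1 and 2. Dkk3, of the Dickkopf family, lay at 23.1, 28.7, 25.1, 60.4 and 39.3 TPM in mutants and at 122, 112, 79.0 and 62.5 TPM in wild-type mice (-1.43 ± 0.25, SE, limma adjusted p 0.02771). Its difference was -1.06 without wild-type mice 1 and 2. Frzb, a soluble Frizzled-related Wnt antagonist of cartilage, lay at 120, 253, 99.0, 243 and 224 TPM in mutants and at 824, 722, 194 and 738 TPM in the wild type. Wild-type mouse 3 fell inside the mutant range of Frzb, and its difference of -1.62 ± 0.38 did not pass (SE, limma adjusted p 0.0577). Of 27 Wnt ligands and antagonists 2 were called lower and 0 higher by limma, 8 were lower (29.6%, against 14.9% of all members) and 3 higher (11.1% against 5.25%) at an unadjusted p under 0.05, and the median was -0.31.

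Receptors, a channel and developmental genes were also lower. Lepr, the leptin receptor, a marker of mesenchymal stromal cells in bone marrow, lay at 6.14, 19.4, 8.6, 20 and 18.7 TPM in mutants and at 88.7, 77.5, 21.7 and 54.7 TPM in the wild type. It was lower by 1.94 ± 0.39 (SE, limma adjusted p 0.03747), with wild-type mouse 3 only just above the mutants. Its difference was -1.32 without wild-type mice 1 and 2. Casr, the calcium-sensing receptor, lay at 1.17, 1.5, 1.49, 1.39 and 2.26 TPM in mutants and at 6.24, 7.93, 7.92 and 4.86 TPM in the wild type. Both groups were tight, and the difference was -1.59 ± 0.32 (SE, limma adjusted p 0.0382). Piezo2, a mechanically gated ion channel, lay at 9.67, 22.0, 12.6, 11 and 10.7 TPM in mutants and at 23.0, 25.0, 31.6 and 35.0 TPM in wild-type mice (-1.10 ± 0.20, SE, limma adjusted p 0.02771), while intact discs had 35.9 ± 3.9 TPM in mutants (SD, n = 4) and 23.8 ± 3.25 TPM in the wild type (SD, n = 3). Of 33 neurotrophin, neuropeptide and axon guidance genes Npy was called higher and Piezo2 lower, with a median of -0.1 that was 0.1 after quantile normalization.

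Fat4, a giant protocadherin that orients cells in growing skeletal tissue, lay at 7.66, 14.7, 5.58, 11.5 and 6.74 TPM in mutants and at 23.7, 29.4, 24.8 and 35.6 TPM in wild-type mice (-1.58 ± 0.27, SE, limma adjusted p 0.02602). Meox1, a homeobox factor of the somites, lay at 1.32, 8.32, 3.98, 7.88 and 4.78 TPM in mutants and at 17.2, 18.8, 13.1 and 21.2 TPM in wild-type mice (-1.71 ± 0.32, SE, limma adjusted p 0.02999). For both genes the 4 wild-type mice lay together, and without mice 1 and 2 the differences were -1.66 for each. Crispld1, a secreted protein, was at 25.6 to 49.4 TPM in mutants and 54.1 to 377 TPM in the wild type, and 2 antisense genes overlap it (-1.88 ± 0.40, SE, limma adjusted p 0.04751). Igdcc4, a membrane protein of the immunoglobulin superfamily, was at 4.29 to 13.7 TPM in mutants and 16.7 to 41.2 TPM in wild-type mice (-1.59 ± 0.28, SE, limma adjusted p 0.02771). Frmpd1, a scaffold protein, was at 0.23 to 2.6 TPM and 3.11 to 6.61 TPM (-1.5 ± 0.33, SE, limma adjusted p 0.0484). Genes on the opposite strand overlap Gli1 (Arhgap9), Aspn (Cenpp), Herpud1 (Gm15890), Meox1 (Gm11551), Matn2 (9430069I07Rik), Mylk (1700119H24Rik), Fat4 (C230034O21Rik) and Frmpd1 (Frmpd1os), and reads of such pairs could not be told apart without strand.

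The remaining called genes of the lists were low or overlapping between groups. Adam22, a family relative of Adam8 without protease activity, was at 0.818 to 1.95 TPM in mutants and 2.44 to 5.29 TPM in wild-type mice (-1.01 ± 0.22, SE, limma adjusted p 0.04875). Alpl, tissue-nonspecific alkaline phosphatase of mineralising cells, was at 15.1 TPM in mutant 2, 3.95 to 4.87 TPM in the other mutants and 10.2 to 45.9 TPM in the wild type, with overlap (-1.83 ± 0.40, SE, limma adjusted p 0.04898). Without wild-type mice 1 and 2 the Alpl difference was -1.11. Lck, a kinase of T cells, was at 1 to 2.44 TPM and 2.26 to 9.95 TPM, also with overlap (-1.29 ± 0.28, SE, limma adjusted p 0.04898). Summed T cell markers, Lck among them, were 5.99 to 11.26 TPM in mutants and 6.596 to 12.66 TPM in the wild type. That sum joins members that went opposite ways. Lck was 9.945 of 10.81 TPM in wild-type mouse 1. Cd2 was at 2.11 to 5.069 TPM in mutants and at 0.1839, 0.638, 3.287 and 1.766 TPM in wild-type mice 1 to 4. In intact discs Lck was at 5.562 to 9.041 TPM, where Cd3d and Cd3e were at 0. Over all 51 lists 1850 members were tested, 9 were called higher and 16 lower (1.35% against 0.873% of all members), and 178 called genes were in no list.

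Several further lists gave no calls. None of 364 zinc finger genes was called by limma. At an unadjusted p under 0.05, 88 were lower (24.2%, against 14.9% of all members) and 9 higher (2.47% against 5.25%), with a median of -0.21. That median was -0.11 after median-of-ratios scaling and -0.08 after quantile normalization, where the medians of all members were 0.0002 and 0.007. None of 79 cytoplasmic ribosomal protein genes was called by limma, and 19 were lower (24.1% against 14.9%) and 1 higher (1.27% against 5.25%) at an unadjusted p under 0.05. Of the 79, 71 had a negative difference (89.9%, against 60.4% of all members), with a median of -0.25 and, without wild-type mice 1 and 2, -0.24. None of 32 skeletal muscle genes was called by limma, with 0 at an unadjusted p under 0.05 (against 20.2% of all members). None of 45 interferon-stimulated genes was called, with 1 higher (2.22% against 5.25%) and 4 lower (8.89% against 14.9%) at an unadjusted p under 0.05 by limma.

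A few genes, singled out after their values were seen because they were called under most settings, had tight values in both groups. Rtel1, a DNA helicase of telomeres, lay at 19.1, 18.9, 18.2, 21.0 and 20.6 TPM in mutants and at 55.8, 52.0, 53.5 and 52.0 TPM in the wild type. Its difference was -1.40 ± 0.08 (SE, limma adjusted p 8.405e-07), and it was called in all 31 alternative fits. Clec11a, a secreted growth factor of bone-forming cells, lay at 10.3, 11.1, 8.94, 13.4 and 10.7 TPM in mutants and at 24.6, 22.8, 28.2 and 26.5 TPM in wild-type mice (-1.17 ± 0.14, SE, limma adjusted p 0.004129). Clec11a was called in 29 of the alternatives, as was Rnf144b. In intact discs Clec11a was at 23.5 ± 4.95 TPM in mutants (SD, n = 4) and 25.5 ± 4.05 TPM in the wild type (SD, n = 3), so among the 4 groups the injured mutants alone were low.

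Whether these differences were already present without injury was asked in intact discs. The libraries are others than those of the injured comparison, but all 16 were in 1 fit, so a gene has the same estimate of its spread in both. There 3 members (0.0129%) differed between genotypes, Rtel1, Crybg1 and Tmem181b-ps, all of them also called in injured discs with the same sign. Of the 203 genes 126 had the same sign in intact discs, 62.07% against 55.49% of all members. At an unadjusted p under 0.05 in intact discs were 21 of the 203, 16 with the same sign, where 3.7% of all members reached that level. A small estimate of a gene's spread lowers its p in both comparisons, so nothing is read from these shares. The median intact difference was 0.10 over the 44 higher genes and -0.05 over the 159 lower genes.

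The test of whether the genotype difference itself differed between injured and intact discs called 0 members (0%) by limma, with 1881 (8.09%) at an unadjusted p under 0.05. Interaction values were 3.71 for Il11, -2.06 for Podn and -1.59 for Gli1 (limma adjusted p 0.488, 0.456 and 0.488). Matn2 had an interaction of -1.08 (limma adjusted p 0.106). None of the named genes is shown by this test to have a genotype difference particular to injured discs.

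**Figure D4:**
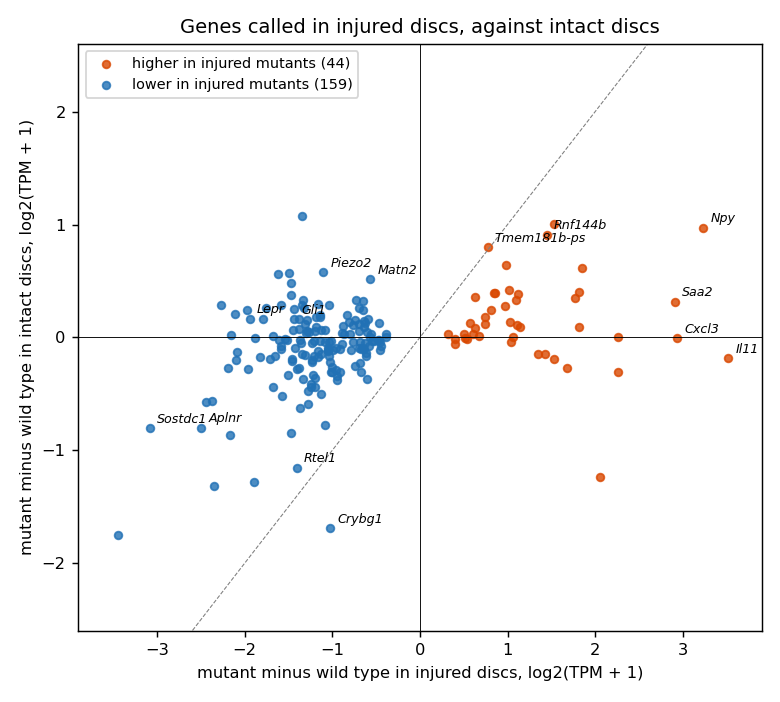
Genotype difference (mutant minus wild type, log2(TPM + 1)) of the 203 called genes in injured discs on the horizontal axis and in intact discs on the vertical axis; each point is a gene, coloured by direction in injured discs, and the dashed line marks equal differences. Most points lie near 0 on the vertical axis, and Rtel1, Crybg1 and Tmem181b-ps lie near or beyond the line.

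The injury effects behind 4 of these genes, which share libraries with the genotype comparison, are set side by side. Il11 was 7.23 higher in injured than intact mutants (limma adjusted p 0.00012) and 3.53 higher in the injured than intact wild type (limma adjusted p 0.1). Gli1 was lower by 2.15 in injured mutants (limma adjusted p 0.00015) and differed by -0.55 in the wild type (limma adjusted p 0.29). Podn fell by 2.17 in mutants (limma adjusted p 0.00037) and differed by -0.11 in the wild type (limma adjusted p 0.88). Aplnr differed by 0.42 between injured and intact mutants and by 2.12 between injured and intact wild-type mice (limma adjusted p 0.5 and 0.11).

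Adam8 itself (ENSMUSG00000025473, chromosome 7, 139978932 to 139992562) was not called. It lay at 68.3, 264, 39.4, 48.3 and 16.2 TPM in injured mutants and at 3.52, 5.59, 66.3 and 54.9 TPM in the injured wild type. Wild-type mice 3 and 4 lay within the mutant range and mice 1 and 2 below it, the same order as for the macrophage markers. The difference was 1.65 ± 0.81 (SE, limma adjusted p 0.268) and -0.09 without wild-type mice 1 and 2. A level of Adam8 RNA does not check the genotype labels, because the labels do not say that the EQ allele alters the transcript.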

How the data were processed

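RNA of intervertebral discs from 16 mice had been sequenced after ribosomal RNA depletion, per the labels' protocols, although the molecule field reads polyA. The authors deposited TPM values in 1 table, which hold no read totals, so depth per library and counting intervals are not given. The submitters' processing notes name bcl2fastq 2.20 and GRCm38. How reads were aligned and counted, whether by strand, and with which annotation is not given in the sources used here. Chromosomes, biotypes and lengths came from a GENCODE annotation of GRCm38, which held 48970 of the 49315 gene identifiers. The filter on low values (1 TPM, 3 libraries) left 24188 genes; 839 on the sex chromosomes or the mitochondrial chromosome and 97 without an annotated chromosome were tested but are not described.

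Differences of log2(TPM + 1) were tested by linear models in limma 3.58.1 under R 4.3.3, moderated by eBayes with a variance trend, with all 16 libraries in 1 fit, a mean per group and Benjamini-Hochberg adjustment over all tested genes at 0.05. Tables and figures were made with Python 3.11.15, pandas 2.3.3 and matplotlib 3.10.9. On simulated data with 24188 genes the fit for the injured comparison recovered 52% of genes with a log2 change of 1 and 75% with a change of 2, with 8 false calls. The simulated noise was independent for each gene and mouse, without the shared shifts between mice seen here, and only better expressed genes were changed. These rates therefore need not hold for the real comparison. Named were Adam8, the 12 largest rises and 12 largest falls among called protein-coding genes without overlap, up to 4 genes with the smallest p of each list, and cell type markers. Others were singled out after their values were seen. The members, the rule and the 51 gene lists were chosen with earlier results of these data known. The alternatives were another pseudocount (0.1), no filter or a mean of 5 TPM, 3 other scalings, no trend, array weights, a fit of the injured groups alone, a replicate block, name prefixes of mutant libraries, a muscle covariate, and leaving out each mouse or wild-type injured mice 1 and 2. Promoter windows came from a RefSeq table. The values of 1 called gene are not reported here.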

Additional observations from a re-analysis of the deposited data

Results flagged for a closer look

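Among the named genes, 78 groups of 4 or 5 injured mice were examined for a mouse far from the others, relative to the range of its group, and 9 had one. About 1 in 20 groups is marked in this way when values are normally distributed. The rate need not hold here, because TPM was used without logs, where high values stand out more. The genes also share the same mice, so nothing is read from the number marked. Mutant mouse 2 stood above the other mutants in 4 of the 9 cases: Aplnr at 19.96 TPM, Piezo2 at 21.99 TPM, Alpl at 15.1 TPM and Adam8 at 264.1 TPM. This mouse also had the highest summed macrophage and neutrophil markers of all injured mice, 6977.0 and 630.9 TPM. The highest Npy value was that of mutant mouse 5, at 192.2 TPM, and the highest Hist2h3c2 value that of mutant mouse 1, at 42.13 TPM. Among wild-type mice, mouse 2 was lowest for Rnf144b at 8.362 TPM and for Tiam2 at 177.1 TPM, in both cases because the other 3 mice were close together. Wild-type mouse 4 was highest for Matn2, at 114.4 TPM.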

How the results depend on the processing

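The main counts were 203 called genes, 44 higher and 159 lower. They were 131, 28 and 103 without the variance trend, 1009, 321 and 688 with array weights (6 calls in intact discs and 4 for the interaction), 77, 17 and 60 without a filter, 328, 71 and 257 with muscle markers as a covariate, 4, 1 and 3 when the 2 injured groups were fitted alone, and 2, 1 and 1 with only the mutants named A8 (8 in intact discs). Without wild-type injured mice 1 and 2 they were 3, 0 and 3, with 5 calls in intact discs. Higher and lower calls were 87 and 104 after GC and length centring and 70 and 73 after median-of-ratios scaling. Quantile normalization gave 84 calls, 53 of them lower. Higher calls were 134 with only the mutants named M and 28 with a pseudocount of 0.1. Leaving out 1 mouse gave 6 to 2141 calls, 2 to 648 higher and 3 to 1493 lower, 1 to 6 in intact discs and 0 to 15 for the interaction. Of all calls in injured discs the extremes came from leaving out wild-type injured mice 2 and 3, and 2 higher calls from leaving out wild-type injured mouse 1. In intact discs they came from mutant intact mouse 1 or wild-type intact mouse 1 (1 call) and mutant intact mouse 3 (6 calls), and the 15 interaction calls from wild-type injured mouse 3. The number of calls in injured discs changed whichever mouse was left out. All 203 genes were still called without wild-type mouse 3 and with the muscle covariate, 116 after median-of-ratios scaling and 82 after quantile normalization. The cause of these changes was not tested. Over 39 named genes and 31 settings, 652 values kept their side of the threshold, 552 kept their direction but no longer passed, and 1 reversed: Adam8 at -0.0921 without wild-type injured mice 1 and 2. The naming of libraries (A8 or M in mutants, D in all wild-type mice) cannot be told apart from genotype. Same-numbered injured mice did not deviate together (correlations -0.1636, -0.2172, -0.018 and -0.0981). Other pairs of injured mice ranged from -0.3113 to 0.3039. Shifts shared by many genes enter these values, so they cannot show that the numbers carry no pairing. The replicate block gave 9 calls, 2 higher and 7 lower, all 9 among the 203.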

Other observations

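Several genes of repair and stress lists had large differences that did not pass the limma threshold of 0.05. Prg4, which encodes the lubricant lubricin, lay at 5670, 1627, 9219, 5658 and 10786 TPM in injured mutants and at 1926, 2896, 1529 and 1579 TPM in injured wild-type mice. Mutant 2 was within the wild-type range and the other 4 mutants were above it, with a difference of 1.53 ± 0.43 (SE, limma adjusted p 0.08397) and of 1.83 without wild-type mice 1 and 2. Lbp and Prg4 thus had mutant 2 in the wild-type range, and neither difference became smaller without those wild-type mice. Hbegf, an EGF receptor ligand of wound repair, lay at 57.8 to 239 TPM in mutants and at 21.4 to 76.3 TPM in wild-type mice (1.57 ± 0.41, SE, limma adjusted p 0.07256).

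Among stress genes, Txn1, the redox protein thioredoxin, differed by 0.84 ± 0.19 and Sesn2, a sestrin induced by Atf4 and p53, by 0.79 ± 0.18 (SE, limma adjusted p 0.05043 for both). Il18, an interleukin-1 family cytokine, had the opposite sign to the other cytokines described, at 13.9 to 25.7 TPM in mutants and 22.5 to 61.2 TPM in wild-type mice (-1.06 ± 0.27, SE, limma adjusted p 0.07184). Wild-type mouse 3, which had high leukocyte markers, was the lowest wild-type mouse for Il18, as it was for Sostdc1, Lepr, Gli1, Ptch1 and Frzb. Of 37 proteasome subunits 32 had a positive difference (86.5%, against 39.5% of all members), with a median of 0.16 and, without wild-type mice 1 and 2, of 0.03. None was called by limma, with 1 higher (2.7% against 5.25%) and 1 lower (2.7% against 14.9%) at an unadjusted p under 0.05.

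Non-coding genes were called on both sides as well, at shares near the 0.873% of all members. Of 1574 antisense genes 3 were higher and 11 lower (0.89% called), and of 1054 lincRNA genes 3 and 7 (0.949%). The lower antisense genes include Gm28153, Gm11551 and 1700119H24Rik, which overlap Crispld1, Meox1 and Mylk on the opposite strand. Strand handling is not given, so these need not be results separate from those coding genes.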
